A study of Homo sapiens with 12 samples.

Results

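The genes described here build the nuclear pore or carry cargo through it: 27 nucleoporins and pore partners, 5 importin alpha adaptors, 3 receptors of the importin beta family, and RAN with its exchange factor and its GTPase activator. They were taken from a list of symbols and not filtered by their response, although earlier results of these data were known. All 38 had an Ensembl identifier among the 54127 gene identifiers in the count files. All 38 also passed the expression filter that left 14501 genes to test. The cells were C4-2, a line of human prostate cancer cells that descends from LNCaP. Samples of the siCHKA group (6) had received 50 nM of an siRNA pool against CHKA, which encodes choline kinase alpha, the enzyme that phosphorylates choline for phosphatidylcholine synthesis. Samples of the siNT group (6) had received 50 nM of nontargeting siRNA, so that reverse transfection and growth in RPMI with serum were shared by both groups; the time after transfection is not given in the labels. Polyadenylated RNA was sequenced, and the comparison asks what loss of CHKA did to the transcriptome of these cells. A single cell line and a single pool of siRNA were used. The paper speaks of biological triplicates in a legend and of 6 biological replicates in another part of it. The labels do not say whether the 6 samples of a group came from separate cultures, so the p-values measure only the spread between these samples.

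The nuclear pore complex is a ring-shaped channel through the nuclear envelope. Outer rings made of the Y complex and an inner ring form its scaffold, membrane proteins hold it in the envelope, and phenylalanine-glycine (FG) repeat proteins fill the central channel. Importin alpha recognises the classical nuclear localisation signal and is carried inward by importin beta, whereas XPO1 carries proteins with a leucine-rich export signal outward. Direction comes from the GTPase RAN: RCC1, on chromatin, loads it with GTP inside the nucleus, and RANGAP1, at the cytoplasmic face of the pore, makes it hydrolyse that GTP.

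Between 10685184 and 24246055 reads fell on genes in each sample, with a median of 18600973 in the siCHKA group, and the 38 genes had between 230 and 18630 reads in a sample. CHKA (ENSG00000110721) was left at 6.76% of its siNT level. Its log2 fold change was -3.88 (SE 0.14, adjusted p = 5.89e-13, edgeR's quasi-likelihood test). The luminal prostate markers KLK3, FOLH1, KRT8 and KRT18 were expressed. They summed to 2836 to 3920 CPM (read counts scaled to the normalized library size) after siCHKA and 3674 to 4737 CPM after siNT. Most of this sum was KLK3, which fell (log2 fold change -0.55), as KRT18 did slightly (-0.12), whereas FOLH1 (0.36) and KRT8 (0.51) rose. Leukocyte markers summed to at most 0.719 CPM in any sample, with CD3E at 0 in all 12, and CDH5, an endothelial marker, to at most 0.0807 CPM. The basal markers summed to 1.57 to 2.10 CPM after siCHKA and 0.981 to 1.46 CPM after siNT, and the fibroblast markers to 24.1 to 30.4 CPM and 11.4 to 18.5 CPM, nearly all of it COL1A1. The siCHKA samples fell into 2 sets, replicates 1, 3 and 5 and replicates 2, 4 and 6, which stood apart from each other across the transcriptome. Set values are therefore given for those of the 38 genes whose result moved by 1.5 times or more, changed sign or changed call. The 4 luminal markers also differed between the sets. KLK3 was at 1726 to 1780 CPM in replicates 1, 3 and 5 and at 2603 to 2747 CPM in replicates 2, 4 and 6. FOLH1 was likewise lower in replicates 1, 3 and 5, whereas KRT8 and KRT18 were higher there.

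Most of the pore and transport genes were lower after siCHKA. At an adjusted p below 0.05, 30 of the 38 fell (78.9%), where 30.1% of all tested genes did. RAE1 and KPNA4 rose, where 32.1% of all tested genes were higher. The remaining 6 genes, NUP160, NUP214, KPNA1, KPNA3, KPNA6 and RCC1, did not pass the test. Their log2 fold changes ran from -1.08 to 0.21 with a median of -0.60, whereas all tested genes had a median of 0.03. Because these are well-expressed genes, the same shares were taken over the 7415 tested genes at or above the level of the lowest of them (24.7 CPM over all samples), of which 42.5% were lower and 24.8% higher, with a median of -0.08.

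The falls were moderate in size but separated the groups. A fall of at least 0.5 on the log2 scale was seen in 20 of the 38 genes, where 14.0% of all tested genes and 17.1% of those at the same level passed this limit. None of the 38 rose by that much in edgeR or in DESeq2, the largest rise at any p being 0.21, where 16.2% of all tested genes and 4.99% of those at the same level did. In 28 of the 38, every siCHKA sample lay below every siNT sample, where 21.5% of all tested genes and 31.9% of those at the same level showed this. In none did every siCHKA sample lie above, where 19.1% of all tested genes and 14.9% of those at the same level did. With siCHKA replicates 2, 4 and 6 left out, 29 genes were lower and 3 higher, and with replicates 1, 3 and 5 left out, 34 were lower and 1 higher. In bulk RNA, fewer cells of a kind and less RNA per cell cannot be told apart. A list of 10 proliferation genes (MKI67, TOP2A, CDK1, CCNB1, CCNB2, RRM2, TYMS, MCM2, PCNA, KIF20A) moved with these falls: all 10 were lower, with a median log2 fold change of -1.57 and a range of -2.62 to -1.01. Its part in the falls of the pore genes was not tested.

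**Figure D1:**
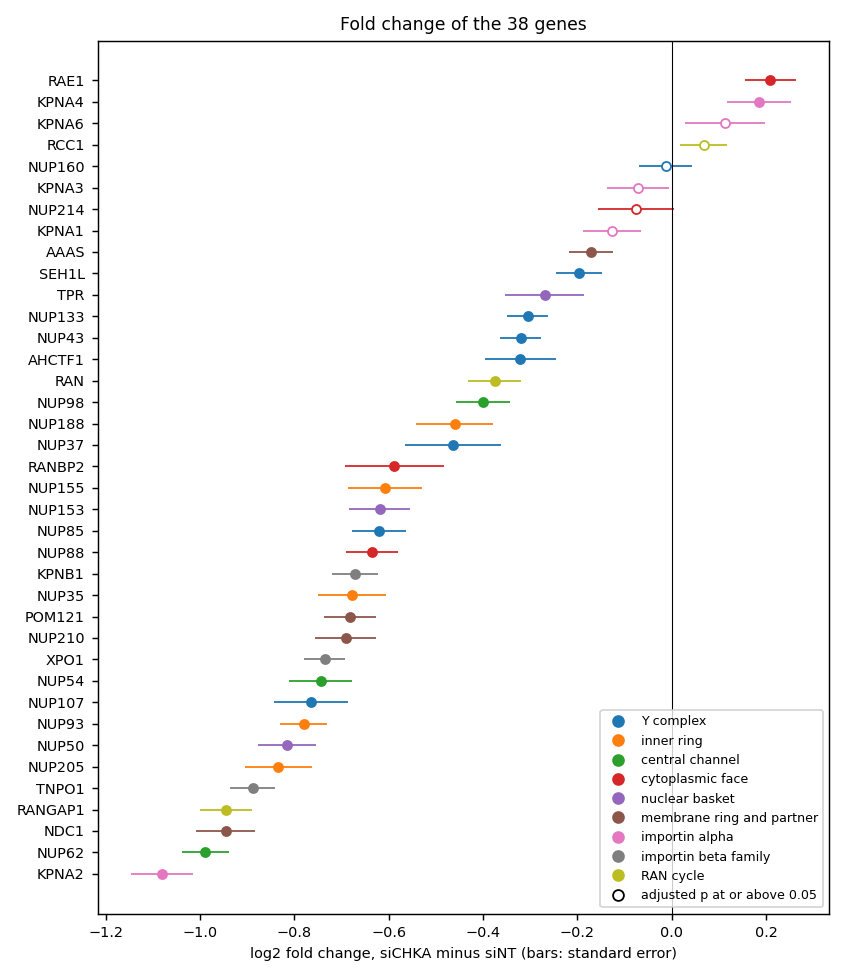
Log2 fold change, siCHKA minus siNT (horizontal axis), of the 38 genes ordered by size, with bars for the standard error and colour for the role. Open circles mark the 6 genes with an adjusted p at or above 0.05. Values run from -1.08 for KPNA2 to 0.21 for RAE1.

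Pore scaffold, channel and receptor genes did not move by the same amount. The 27 pore genes had a median log2 fold change of -0.61, with 24 lower, 1 higher and 2 not called. The 11 transport receptor and RAN cycle genes had a median of -0.38, with 6 lower, 1 higher and 4 not called. The shares lower were 88.9% and 54.5%, where 30.1% of all tested genes and 42.5% of those at the same level were lower. Among the pore genes, the central channel (-0.74), the membrane ring and its partner (-0.69), the inner ring (-0.68) and the nuclear basket (-0.62) had the lowest medians, and the Y complex (-0.32) and the cytoplasmic face (-0.33) the highest. Among the receptors, the importin beta family stood at -0.74 and importin alpha at -0.07. These medians rest on 3 to 8 genes each and were not tested against each other.

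Of the 8 genes of the Y complex, the branched scaffold of the outer rings, 7 fell and NUP160 did not pass the test. NUP107 (ENSG00000111581, chromosome 12, 68686951 to 68745809, plus strand in GRCh38), a stem subunit, fell furthest. It ranged from 51.5 to 69.0 CPM after siCHKA (median 58.2) and from 86.4 to 112 CPM after siNT (median 101). The groups did not overlap, and siCHKA replicates 1, 3 and 5 were the lowest of the 12 samples. Its log2 fold change was -0.77 (SE 0.08, adjusted p = 2.44e-07, edgeR). NUP85, a subunit of the short arms, followed at -0.62 (SE 0.06). NUP43 and NUP37, small propeller proteins on those arms, had values of -0.32 and -0.46, and NUP37 was the only called gene of the complex apart from NUP107 and NUP85 to exceed 0.4 in size. NUP37 was low in number of reads, and its groups overlapped: 17.6 to 24.8 CPM after siCHKA (median 20.6) and 23.4 to 32.7 CPM after siNT (median 29.2). Its fall was -0.67 with siCHKA replicates 1, 3 and 5 and -0.29 with replicates 2, 4 and 6, both against all siNT samples. NUP133, a stem subunit, fell by 0.31 on the log2 scale, and SEH1L, a propeller protein shared with a lysosomal signalling complex, by 0.20. AHCTF1, or ELYS, which brings the Y complex to chromatin when pores form after mitosis, stood at -0.32 (SE 0.07), but at -0.49 with siCHKA replicates 2, 4 and 6 and at -0.17 with replicates 1, 3 and 5.

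NUP160, another subunit of the short arms, ranged from 194 to 231 CPM after siCHKA (median 211) and from 206 to 226 CPM after siNT (median 211). The siNT samples lay inside the range of the siCHKA samples, whose replicates 1, 3 and 5 were high and 2, 4 and 6 low. Its log2 fold change was -0.01 (SE 0.06, adjusted p = 0.861, edgeR), so that it was the gene with the smallest difference among the 38. With siCHKA replicates 1, 3 and 5 left out it was -0.13 (adjusted p = 0.0304), and with replicates 2, 4 and 6 left out it was 0.10.

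All 5 genes of the inner ring fell, and none of their siCHKA samples reached the siNT range. NUP205 (ENSG00000155561, chromosome 7, 135557917 to 135648757, plus strand), a large solenoid scaffold protein, ranged from 186 to 244 CPM after siCHKA (median 211) and from 348 to 410 CPM after siNT (median 380). Every siNT sample was above every siCHKA sample, among which replicates 1, 3 and 5 were the higher ones. The fall was -0.83 on the log2 scale (SE 0.07, adjusted p = 2.18e-08, edgeR). NUP93 (chromosome 16, 56730118 to 56850286, plus strand), which anchors the other inner ring subunits, fell to 58.3% of its siNT level, with a log2 fold change of -0.78 (SE 0.05). NUP35, which contacts the membrane, stood at -0.68, and NUP155, a membrane-binding scaffold protein, at -0.61. The latter stood at -0.44 with siCHKA replicates 1, 3 and 5, short of the 0.5 limit, and at -0.80 with replicates 2, 4 and 6. NUP188, the relative of NUP205, had the smallest fall of the ring at -0.46 (SE 0.08). It stood at -0.28 with siCHKA replicates 1, 3 and 5 and at -0.67 with replicates 2, 4 and 6.

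The 3 channel genes also fell without overlap between groups. NUP62 (ENSG00000213024, chromosome 19, 49906825 to 49929764, minus strand), the FG protein at the centre of the channel, ranged from 44.4 to 52.2 CPM after siCHKA (median 50.1) and from 93.4 to 106 CPM after siNT (median 97.8). Its 12 samples formed separate bands, with the lowest siNT sample far above the highest siCHKA sample. The log2 fold change was -0.99 (SE 0.05, adjusted p = 2.66e-11, edgeR), which left 50.4% of the siNT level (two-sided exact permutation test over samples, p = 0.00216, which is the lowest value possible with 6 samples in each group). It was nearly the same in both sets of siCHKA samples, -1.02 and -0.96. Exons of NUP62 overlap those of ATF5 on the other strand and of IL4I1 in GENCODE 44, and the strand setting of the counting is not given in the sources used here. ATF5 was higher after siCHKA (40.5 against 34.7 CPM) and IL4I1 was near 1 CPM, at 1.08 and 0.958 CPM. NUP54, which binds NUP62 in the channel, stood at -0.74 (SE 0.07), and NUP98, an FG protein found on both faces of the pore and an RNA export partner, at -0.40 (SE 0.06). For NUP98 the value was -0.29 with siCHKA replicates 1, 3 and 5 and -0.51 with replicates 2, 4 and 6.

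At the cytoplasmic face, 2 of 4 genes fell (50%), where 42.5% of tested genes at the same level did. NUP88 (chromosome 17, 5359668 to 5420164, minus strand), a scaffold protein bound to NUP214, ranged from 98.5 to 112 CPM after siCHKA (median 107) and from 144 to 178 CPM after siNT (median 167). The groups were separate, and its log2 fold change was -0.64 (SE 0.06, adjusted p = 3.08e-08, edgeR). NUP214 itself, an FG protein of the export platform, ranged from 64.3 to 89.9 CPM after siCHKA (median 78.8) and from 75.0 to 89.3 CPM after siNT (median 81.6). Its siCHKA samples spread on both sides of the siNT samples, with replicates 2, 4 and 6 the lowest of the 12, and its log2 fold change was -0.08 (SE 0.08, adjusted p = 0.433). With siCHKA replicates 1, 3 and 5 left out, it was -0.27 (adjusted p = 0.00216), and with replicates 2, 4 and 6 left out, it was 0.10.

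RANBP2, which forms the cytoplasmic filaments, binds RAN and holds RANGAP1 at the pore, ranged from 129 to 156 CPM after siCHKA (median 144) and from 169 to 264 CPM after siNT (median 219). The groups did not overlap, although the siNT samples were spread widely, with replicates 4 to 6 well above replicates 1 to 3. The log2 fold change was -0.59 (SE 0.10, adjusted p = 0.000112, edgeR), with the largest standard error of the 38 genes beside that of NUP37. Near-identical RGPD copies of RANBP2 were each below 1 CPM, and none of them passed the filter. RAE1 (ENSG00000101146, chromosome 20, 57351223 to 57379211, plus strand), a messenger RNA export factor bound to NUP98, went the other way: 68.4 to 81.6 CPM after siCHKA (median 77.7) and 60.7 to 71.8 CPM after siNT (median 66.9). Only siCHKA replicate 5 lay within the siNT range. The log2 fold change was 0.21 (SE 0.05, adjusted p = 0.00305, edgeR), and 0.17 and 0.24 with the sets of siCHKA samples taken alone.

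All 3 basket genes fell. NUP50 (chromosome 22, 45163925 to 45188017, plus strand), a mobile basket protein that helps release cargo from importin alpha, ranged from 83.9 to 105 CPM after siCHKA (median 93.2) and from 153 to 179 CPM after siNT (median 163). No siCHKA sample came near the siNT samples, and the log2 fold change was -0.82 (SE 0.06, adjusted p = 5.01e-09, edgeR). NUP153, the FG protein that ties the basket to the ring, stood at -0.62 (SE 0.06), and at -0.50 and -0.75 with siCHKA replicates 1, 3 and 5 and with replicates 2, 4 and 6. TPR, the coiled-coil protein that makes up the basket filaments, had the smallest fall of the 3 at -0.27 (SE 0.08, adjusted p = 0.0102). Its groups overlapped, at 186 to 222 CPM after siCHKA (median 210) and 214 to 296 CPM after siNT (median 231), with siNT replicates 5 and 6 far above the other siNT samples. With siCHKA replicates 2, 4 and 6 left out it was -0.18 (adjusted p = 0.113), and with replicates 1, 3 and 5 left out it was -0.36.

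The 4 genes of the membrane ring and its partner fell, again without overlap between groups. NDC1 (ENSG00000058804, chromosome 1, 53765478 to 53838463, minus strand), a transmembrane protein needed to insert pores into the envelope, ranged from 109 to 137 CPM after siCHKA (median 118) and from 215 to 262 CPM after siNT (median 228). Replicates 1, 3 and 5 were the higher siCHKA samples but were still far below every siNT sample. NDC1 had a log2 fold change of -0.95 (SE 0.06, adjusted p = 1.07e-09, edgeR; exact permutation p = 0.00216). AAAS, or aladin, the soluble protein that binds NDC1, fell by only 0.17 on the log2 scale (SE 0.05, adjusted p = 0.00464), and stood at -0.22 with siCHKA replicates 1, 3 and 5 and at -0.13 with replicates 2, 4 and 6. The other transmembrane proteins, NUP210 and POM121, had log2 fold changes of -0.69 (SE 0.06) and -0.68 (SE 0.05). POM121 has near-identical copies: POM121B was at 1.07 CPM after siNT and 0.771 CPM after siCHKA, and POM121C had no matching identifier. Reads aligned to several places were left out of the counts, so the level of POM121 is less sure than those of the others.

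The 5 importin alpha genes diverged. KPNA2 (ENSG00000182481, chromosome 17, 68035636 to 68047364, plus strand) had the largest fall of the 38 genes, KPNA4 rose, and KPNA1, KPNA3 and KPNA6 did not pass the test. KPNA2, an adaptor that is abundant in dividing cells, ranged from 146 to 179 CPM after siCHKA (median 166) and from 317 to 374 CPM after siNT (median 349). The lowest siNT sample was well above the highest siCHKA sample, and within the siCHKA group replicates 1, 3 and 5 lay together above replicates 2, 4 and 6. The log2 fold change was -1.08 (SE 0.07, adjusted p = 3.06e-10, edgeR; exact permutation p = 0.00216), leaving 47.3% of the siNT level. With replicates 1, 3 and 5 alone it was -0.95, and with replicates 2, 4 and 6 alone it was -1.22.

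KPNA4, an adaptor for cargo such as RELA, ranged from 188 to 237 CPM after siCHKA (median 208) and from 171 to 203 CPM after siNT (median 185). The groups overlapped, since only siCHKA replicates 1, 3 and 5 were above all siNT samples. Its log2 fold change was 0.19 (SE 0.07, adjusted p = 0.0253, edgeR), and the call was lost when any single sample among siCHKA replicates 1, 3 and 5 and siNT replicates 1, 2 and 3 was left out (0.15 to 0.18, adjusted p from 0.0526 to 0.0759). It was 0.32 (adjusted p = 0.000321) with siCHKA replicates 1, 3 and 5 alone and 0.04 (adjusted p = 0.615) with replicates 2, 4 and 6 alone. KPNA6, of the same subfamily as KPNA1, ranged from 156 to 214 CPM after siCHKA (median 174) and from 146 to 183 CPM after siNT (median 168), and the same 3 siCHKA samples were the highest of the 12. Its log2 fold change was 0.11 (SE 0.08, adjusted p = 0.255), 0.28 (adjusted p = 0.0024) with replicates 1, 3 and 5 and -0.08 with replicates 2, 4 and 6. KPNA1 ranged from 154 to 193 CPM after siCHKA (median 171) and from 175 to 201 CPM after siNT (median 188), a log2 fold change of -0.13 (SE 0.06, adjusted p = 0.0827). It passed the test without siCHKA replicate 1 (-0.16, adjusted p = 0.0275) and with replicates 2, 4 and 6 alone (-0.26, adjusted p = 0.000777), and stood at -0.01 with replicates 1, 3 and 5 alone. KPNA3, the closest relative of KPNA4, ranged from 82.0 to 96.7 CPM after siCHKA (median 85.9) and from 80.1 to 104 CPM after siNT (median 92.3). The siCHKA samples lay inside the siNT range, with a log2 fold change of -0.07 (SE 0.07, adjusted p = 0.361). It was -0.18 (adjusted p = 0.0395) with replicates 2, 4 and 6 alone, where it passed the test, and 0.03 (adjusted p = 0.79) with replicates 1, 3 and 5 alone.

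Levels per kilobase of the canonical transcript allowed the adaptors to be compared with each other. Of their summed CPM per kilobase, KPNA2 made up 65.5% ± 1.05 after siNT and 46.9% ± 0.563 after siCHKA (SD, n = 6 each). The sum itself lay between 250.2 and 283 CPM per kilobase after siNT and between 158 and 196 after siCHKA. KPNA1, KPNA6, KPNA3 and KPNA4 made up 10.2%, 8.48%, 8.17% and 7.71% of the sum after siNT, and 14.2%, 13.8%, 11.8% and 13.3% after siCHKA. KPNA2 remained the most abundant adaptor per kilobase in all samples, with a lowest share of 46.2%. This ranking rests on canonical lengths, 1977 bases for KPNA2 and 6888, 4222, 8952 and 7355 for KPNA1, KPNA3, KPNA4 and KPNA6. The lengths in use in these cells were not measured. In CPM after siCHKA, KPNA2 (mean 164) was below KPNA4 (210), KPNA6 (180) and KPNA1 (172) and above KPNA3 (88.1). The log2 ratio of KPNA2 to KPNA4 CPM went from 0.91 after siNT to -0.356 after siCHKA, a difference of -1.27 that is given without a test because the pair was chosen after the values were seen.

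The promoter of KPNA2 holds letters that are common in genes expressed late in the cell cycle, namely CCAAT boxes and the cell cycle genes homology region (CHR, TTTGAA or TTCGAA), as well as an E2F site, searched for as TTTCGCG and as its variants with GG (TTTGGCG) and with CC (TTTCCCG) in the middle. They are shown because KPNA2 had the largest fall. The windows come from the RefSeq promoter table (GRCh38.p14, 250 bases before to 50 after the start), are read 5′ to 3′ on the plus strand of chromosome 17, and have the motif in capitals, its reverse complement being printed where the motif is on the other strand.
KPNA2 CHR, other strand, chr17:68035625-68035653: ccaacgtgtttTTCAAAtccaccaatggg
KPNA2 CCAAT, chr17:68035635-68035663: tttcaaatccaCCAATgggcacacagctt
KPNA2 CCAAT, chr17:68035666-68035694: gctcgaaccagCCAATcggaatgcggagt
KPNA2 E2F, other strand, chr17:68035687-68035715: tgcggagtcacCGGGAAAtttaaatcgcg
KPNA2 CHR, chr17:68035756-68035784: gaggtggacccTTTGAAcgcagtcgccct
These windows lie close together, and the first overlaps the second and the third the fourth. The first 4 motifs begin 99, 89, 58 and 37 bases before the start and the last 32 bases after it.

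Across the genes the same letters were searched on both strands in the 34 of 38 promoters that the table holds. A CCAAT box stood in 14 of 34 promoters (41.2%), against 35.7% of all 27305 promoters and 36.9% of the 10594 promoters of tested genes. The CHR letters stood in 8 promoters (23.5%; 16.6% of all promoters and 10.8% of those of tested genes), and an E2F site in 6 (17.6%; 7.28% and 11.5%). Of the 27 promoters of genes that fell, 12 held a CCAAT box, as did 2 of the 7 promoters of the other genes. Of the same 27 promoters, 8 held a CHR and 6 an E2F site. None of the 7 held either, but 7 promoters are too few to tell this from the shares of tested genes. NDC1, the transmembrane protein described above, has a CHR close to its start, and NUP54 of the channel has an E2F site just after its own. They are printed on the minus strand, which both genes use.
NDC1 CHR, chr1:53838310-53838338: gccttcctgccTTTGAActgcggtggcgg
NUP54 E2F, chr4:76148366-76148394: tggtctcctgcTTTCGCGacatggccttc
The motifs were chosen after the values were seen. A match describes letters and is not a binding site.

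All 3 genes of the importin beta family fell, each by at least 0.5 on the log2 scale, and their groups did not overlap. TNPO1 (ENSG00000083312, chromosome 5, 72816312 to 72916733, plus strand), transportin 1, which imports RNA-binding proteins such as HNRNPA1, ranged from 250 to 276 CPM after siCHKA (median 262) and from 459 to 522 CPM after siNT (median 490). The siCHKA samples were tightly grouped, far below the siNT samples. The log2 fold change was -0.89 (SE 0.05, adjusted p = 5.74e-11, edgeR; exact permutation p = 0.00216). XPO1 (ENSG00000082898, chromosome 2, 61476032 to 61538741, minus strand), the main protein exporter, ranged from 267 to 282 CPM after siCHKA (median 277) and from 437 to 485 CPM after siNT (median 464). The sets of siCHKA samples overlapped here, with log2 fold changes of -0.74 and -0.73, and the fold change over all samples was -0.74 (SE 0.04, adjusted p = 1.88e-10). KPNB1 (ENSG00000108424, chromosome 17, 47649476 to 47685505, plus strand), importin beta 1, the carrier partner of all 5 adaptors, ranged from 497 to 541 CPM after siCHKA (median 528) and from 780 to 905 CPM after siNT (median 839). It too had separate groups and little difference between the sets, and its log2 fold change was -0.67 (SE 0.05, adjusted p = 3.50e-09).

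The RAN cycle genes split between RANGAP1 and RCC1. RANGAP1 (ENSG00000100401, chromosome 22, 41244779 to 41286187, minus strand) ranged from 110 to 135 CPM after siCHKA (median 116) and from 218 to 244 CPM after siNT (median 233). No siCHKA sample came near the siNT range, and its log2 fold change was -0.95 (SE 0.06, adjusted p = 2.07e-10, edgeR; exact permutation p = 0.00216). RAN (chromosome 12, 130872037 to 130877678, plus strand) ranged from 374 to 417 CPM after siCHKA (median 389) and from 446 to 542 CPM after siNT (median 529). Its groups were separate, with siNT replicates 5 and 6 the lowest of the siNT samples, and its log2 fold change was -0.38 (SE 0.06, adjusted p = 1.84e-05).

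RCC1 (ENSG00000180198, chromosome 1, 28505943 to 28539300, plus strand) ranged from 763 to 906 CPM after siCHKA (median 820) and from 757 to 803 CPM after siNT (median 781). The groups overlapped, with siCHKA replicate 5 the highest of the 12 samples, and the log2 fold change was 0.07 (SE 0.05, adjusted p = 0.253, edgeR). The log2 ratio of RANGAP1 to RCC1 CPM differed by -1.01 between groups, a pair also chosen after its values were seen. RCC1 shares exons on the same strand with SNHG3, a host gene of small nucleolar RNAs, and reads that fall on both genes are left out by the counting. SNHG3 was at 9.82 CPM after siNT and 21.9 CPM after siCHKA, a log2 fold change of 1.15 (adjusted p = 2.77e-07), and its part in the RCC1 value was not tested. Per kilobase RCC1 had the highest siNT level of the 38 genes (307 CPM per kilobase), followed by RAN (206), KPNA2 (175) and KPNB1 (138), and the lowest levels were those of NUP37 (12.1), NUP214 (10.9) and POM121 (7.64).

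Other genes of nuclear transport were taken from a list of pathway genes, chosen with earlier results of these data known. Of 31 listed, 30 had an identifier and 29 passed the filter, of which 18 were lower, 3 higher and 8 not called, with a median log2 fold change of -0.26. The share lower was 62.1%, where 30.1% of all tested genes and 42.5% of those at or above the level of the lowest of the 38 were lower. A fall of at least 0.5 was seen in 7 of them (24.1%), where 14.0% and 17.1% passed this limit, and none rose by that much in edgeR at any p, the 3 that were higher being KPNA5 (0.42), DDX19B (0.18) and NUP58 (0.15). The largest fall was that of GLE1, which activates the export helicase DDX19 at the cytoplasmic face: 42.2 to 48.2 CPM after siCHKA (median 43.5) and 108 to 131 CPM after siNT (median 114). Its groups were widely separated, and its log2 fold change of -1.38 (SE 0.06, adjusted p = 2.18e-12, edgeR) was beyond that of any of the 38 genes. RANBP1, the cytoplasmic cofactor of RANGAP1, ranged from 77.1 to 90.9 CPM after siCHKA (median 81.1) and from 156 to 189 CPM after siNT (median 177), a log2 fold change of -1.09 (SE 0.06). The import receptor IPO9 stood at -0.91, the messenger RNA export cofactor NXT1 at -0.78 and XPO5, the exporter of microRNA precursors, at -0.71. NXT1 differed between the sets, at 7.69 to 8.39 CPM in siCHKA replicates 1, 3 and 5 and 9.33 to 11.5 CPM in replicates 2, 4 and 6.

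The sets of siCHKA samples bore on these genes more in 1 direction than in the other. In 20 of the 38 genes, siCHKA replicates 1, 3 and 5 all lay above replicates 2, 4 and 6, where 24.6% of all tested genes and 36.1% of those at the same level did. In 5 genes (NUP37, NUP107, NUP54, AAAS and RAN) they all lay below, where 22.9% of all tested genes and 21.6% of those at the same level did. All 5 importin alpha genes and all 3 basket genes were among the 20. The canonical transcripts of the 20 genes had a median length of 6807 bases, those of the 5 genes 2362 bases and those of the other 13 genes 3611 bases. Over all tested genes the same order was seen at 4588.5, 2461 and 2775 bases. The share of HTSeq entries for reads aligned to several places also separated the sets. It was 27.6% to 29.2% in replicates 1, 3 and 5 and 29.4% to 30.6% in replicates 2, 4 and 6. The labels name no batch that would separate the sets, and the part of transcript length or of these reads in the difference was not tested.

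**Figure D2:**
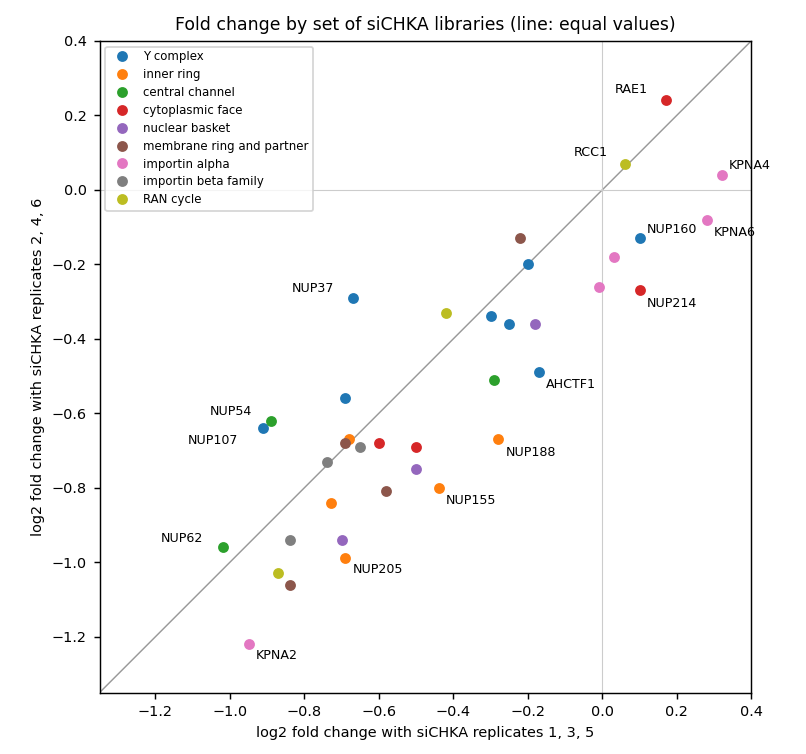
Log2 fold change against all 6 siNT samples with siCHKA replicates 1, 3 and 5 (horizontal axis) and with replicates 2, 4 and 6 (vertical axis) for the 38 genes, coloured by role, with a line of equal values. KPNA2 stands at -0.95 and -1.22, NUP62 near the line at -1.02 and -0.96, and KPNA4 at 0.32 and 0.04; both axes share the siNT samples.

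The 3′ untranslated regions were searched for the 7-base words GCCAGAT and TGCCCTT, which had gone with falls across genes in an earlier analysis of these data. At least 1 of them stood in the 3′ untranslated region of 10 of the 38 genes (26.3%), against 23.6% of the 12297 tested genes that have one in GENCODE 44. The 10 genes had a median log2 fold change of -0.63 with 8 lower (80%), and the other 28 genes a median of -0.53 with 22 lower (78.6%). Over the 12297 tested genes, 44.3% of those with a word and 30.3% of those without were lower. Their medians were -0.12 and 0.04. Taken alone, TGCCCTT stood in 9 of the 38 genes, with a median of -0.67 against -0.46 in the other 29, and GCCAGAT in 2, with a median of -0.36 against -0.61 in the other 36. The 10 genes also had longer 3′ untranslated regions, with a median of 2583 bases against 1158 in the other 28, and over all tested genes 2931 against 993 bases. Neither the words nor the length were tested as a source of the falls, and because the words had been picked in these data their values are a description. The windows are shown for NUP62, which had the largest fall among the 10, for KPNB1, and for RANBP2, which alone held both words. Capitals mark the word, the build is GRCh38, NUP62 is read on the minus strand and the others on the plus strand.
NUP62 TGCCCTT, chr19:49908101-49908129: tttcacatgacTGCCCTTgacatgatcgc
KPNB1 TGCCCTT, chr17:47685367-47685395: ggcattcagaaTGCCCTTggcatgccagt
RANBP2 TGCCCTT, chr2:108784493-108784521: ctagcttcctgTGCCCTTtcatagatatt
RANBP2 GCCAGAT, chr2:108785263-108785291: tcggccacaaaGCCAGATacttgaaataa
KPNA1 and KPNA6, neither of which passed the test, also held a word.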

How the data were processed

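Polyadenylated RNA was sequenced in 12 samples, grouped by their titles into 6 siCHKA and 6 siNT. The authors aligned 40-base single-end reads to GRCh37 with TopHat2 2.0.4 and counted them on Ensembl genes with HTSeq 0.5.3p9, per the submitters' processing notes, and deposited raw counts without normalization, in 4 files per sample that were summed here. Of the entries tallied by HTSeq, 26.1% to 30.6% were for reads aligned to several places. A further 3.95% to 5.97% fell on no gene and 2.82% to 2.93% on several genes. All of these stayed out of totals and tests. Whether a read aligned to several places was tallied more than once is not given, so these may not be shares of reads. The labels describe RNA from sorted cells. Symbols matched 82.8% of identifiers, and coordinates are those of GENCODE 44 (GRCh38). In edgeR 4.0.16 (R 4.3.3, limma 3.58.1), genes passing filterByExpr were normalized by TMM and tested with the quasi-likelihood test, Benjamini-Hochberg adjusted over all 14501 genes at 0.05. Standard errors (SE) are not an output of the quasi-likelihood test. They were derived as the absolute log2 fold change over the square root of its F statistic. CPM are counts scaled to the normalized library size, and log2 CPM used a prior count of 2. A floor of 3 counts was 0.124 to 0.281 CPM, counting error only.

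All 38 genes are named, as are the other transport genes past an adjusted p of 0.05 and 0.5 on the log2 scale, at most 5 in each direction. The members and lists were chosen with earlier results of these data known. The fits were tested on simulated data. Same-numbered samples of the 2 groups had correlations of -0.396 to 0.32 in their deviations from the group means, so the numbers were not taken to pair samples. Alternatives were RLE, DESeq2 1.42.0, other filters, a replicate block, each sample left out, and each set of siCHKA samples left out. Protein sequences were not analysed here, and some luminal markers of the list are not reported here. Python 3.11.15, numpy 2.4.6 and pandas 2.3.3 were used otherwise.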

Additional observations from a re-analysis of the deposited data

Results flagged for a closer look

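Among 76 gene and group combinations, 3 held a sample farther from its nearest neighbour than Dixon's 95% limit allows, where chance gives about 1 in 20, or 3.8. NUP93 was at 102 CPM in siNT replicate 6, below 110 to 113 CPM in the other siNT samples. NUP62 was at 44.4 CPM in siCHKA replicate 1, below 49.5 to 52.2 CPM in the other siCHKA samples. KPNB1 was at 497 CPM in siCHKA replicate 4, below 525 to 541 CPM in the other siCHKA samples. Each of the 3 genes kept its call without the sample in question.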

How the results depend on the processing

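Over 19 alternatives, 12 of which left out 1 sample, 30 of the 32 called genes stayed called in the same direction under every alternative, the exceptions being KPNA4 and TPR. The number of genes lower ran from 29 to 34, that of genes lower by at least 0.5 from 18 to 22, and that of genes higher from 1 to 3. The latter was 1 without the filter and with siCHKA replicates 1, 3 and 5 left out, and 1 to 2 when single samples were left out. With siCHKA replicates 2, 4 and 6 left out, the median log2 fold change was -0.50 and TPR was no longer called. The sign changed only in genes that had not passed the test: NUP160 (0.01 with at least 10 counts in every sample and without siCHKA replicate 2, 4 or 6, with a range of -0.04 to 0.01 when single samples were left out), NUP160, NUP214 and KPNA3 with siCHKA replicates 2, 4 and 6 left out (0.10, 0.10 and 0.03), and KPNA6 with replicates 1, 3 and 5 left out (-0.08). KPNA4 was not called without the filter (0.16, adjusted p = 0.0697, edgeR). The causes were not tested. With a block for the replicate number, 30 genes were lower and 2 higher, as without it, and over all tested genes 4273 were lower and 4494 higher, where the fit without it gave 4371 and 4650. Only 1 of 6 siCHKA samples correlated best with the siNT sample of its own number. The 38 genes had at least 230 reads in every sample, so depth limited them little. The labels do not show that samples of a group are independent. Exons of 23 of the 38 genes overlap those of another gene in GENCODE 44. SEH1L, NUP153, KPNA1, KPNB1 and XPO1 overlap only genes that were not counted. Many of the other overlaps are on the other strand, where a loss of reads depends on the strand setting, which is not given. Reads that fell on several counted genes or aligned to several places were left out.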

Other observations

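The siNT samples were not uniform for every gene. RANBP2 was at 194, 173 and 169 CPM in siNT replicates 1 to 3 and at 244, 264 and 254 CPM in replicates 4 to 6. TPR was at 296 and 295 CPM in siNT replicates 5 and 6 and at 214 to 235 CPM in the other 4. RAN was at 479 and 446 CPM in siNT replicates 5 and 6 and reached 542 CPM in the others. These siNT samples were singled out after their values were seen.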
